A study of Homo sapiens with 2 samples.

Results

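Chromosome 20 carried 420 of the 13591 RUNX1 peaks called in MCF10A, a cell line from human breast epithelium that does not form tumours. These are all the peaks on that chromosome. The chromosome was chosen by its number of peaks per Mb in this same list, so that density is described here and not tested. Both libraries came from MCF10A cells in which the cells' own RUNX1 had been deleted and a lentivirus supplied a RUNX1 gene that doxycycline switches on, given at 1 µg/ml for 24 h. There was 1 library from DNA precipitated with an anti-RUNX1 antibody (ChIPseq) and 1 library of input DNA, with 80338845 and 87410774 tags kept. Binding was thus that of reintroduced RUNX1 in an engineered line, with no replicate and no uninduced library among the samples used here, and every interval below covers counting error only. The paper reports an earlier ChIPseq of the cells' own RUNX1 without strong binding. It names a low RUNX1 level or a weak antibody as possible reasons.

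RUNX1 is a DNA-binding transcription factor that works with its partner CBFB, which does not touch DNA itself but strengthens the hold of RUNX1 on it. The complex switches genes on or off, from promoters and from distant enhancers, and both partners are lost by mutation in some breast cancers. The site it reads has the core TGTGGT or TGCGGT. Chromosome 20 is known in breast tissue for the long arm, which is gained in many breast tumours, and it also holds several families of secreted defence proteins: the beta-defensins, the cystatins, the BPI fold proteins and the WFDC protease inhibitors.

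The RUNX site was frequent in the few promoters of chromosome 20 that held a summit, the highest point of a peak. Promoters are here windows of 250 bases before to 50 after a RefSeq gene start (GRCh38.p14), of which 914 lay on chromosome 20. A summit fell in 17 of them, and 12 of the 17 held a RUNX site on either strand, or 70.6% (95% Wilson interval 46.9 to 86.7). Among the 897 windows without a summit the share was 19.1% (16.6 to 21.8). The windows overlap in part, and 14 different summits lay in them. Of these, 11 were in a window with a site, 8 of the 11 within 50 bp of it, and the median distance was 30.5 bp. For comparison, the AP-1 site TGANTCA was in 0 of the 17 windows and in 7.25% of those without a summit, and the TEAD site GGAATG was in 2 of the 17 and in 15.2%. Mean GC content was 59.8% with a summit and 59.2% without. On the other chromosomes 63.2% of the windows with a summit and 19.0% of those without held a RUNX site. There the AP-1 site was in 12.0% (9.19 to 15.4) of windows with a summit and in 7.69% of those without. The TEAD site was in 17.2% and 14.0%. The 0 of 17 on chromosome 20 rests on few windows and does not show that bound promoters lack the AP-1 site.

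The stretches below are shown because they lie under promoter peaks of chromosome 20, with RUNX sites in capitals. They run 5′ to 3′ on the strand of the gene and stop before its start. The first comes from GGTLC1, a gene of the gamma-glutamyltransferase family (chr20:23986966-23987056, minus strand), the second from SEC23B, a coat protein of vesicles that leave the endoplasmic reticulum (chr20:18507376-18507466, plus strand), the third from BPIFB1, a secreted airway protein (chr20:33283067-33283157, plus strand), and the fourth from CST5, cystatin D, a salivary protease inhibitor (chr20:23879908-23879998, minus strand). The last is from ZNF335, a zinc finger protein, whose window held a summit and no site of these letters (chr20:45972227-45972317, minus strand).
GGTLC1: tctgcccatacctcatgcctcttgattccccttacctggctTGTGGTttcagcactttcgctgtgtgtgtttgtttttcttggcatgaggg
SEC23B: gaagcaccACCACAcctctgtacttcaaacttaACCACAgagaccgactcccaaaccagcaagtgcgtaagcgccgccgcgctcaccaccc
BPIFB1: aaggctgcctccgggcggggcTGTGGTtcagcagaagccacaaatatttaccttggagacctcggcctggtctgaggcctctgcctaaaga
CST5: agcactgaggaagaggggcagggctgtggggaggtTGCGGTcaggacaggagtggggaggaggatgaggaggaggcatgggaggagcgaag
ZNF335: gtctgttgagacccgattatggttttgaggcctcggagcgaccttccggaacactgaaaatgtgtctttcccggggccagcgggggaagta

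In GGTLC1 the summit stood 2.5 bp from the middle of the site, with a pileup of 18 tags (95% Poisson interval 10.7 to 28.4), where the pileup is the number of ChIP tags that cover the summit. The summit in SEC23B was 19.5 bp from the nearer of its 2 sites, at 17 tags (9.90 to 27.2). In BPIFB1 the distance was 42.5 bp and the pileup 15 tags, and in CST5 it was 32.5 bp, again at 15 tags. The summit at ZNF335 reached 13 tags (6.92 to 22.2). All 5 are low to middling peaks of the list, and their intervals overlap.

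Per Mb, chromosome 20 held 6.53 peaks (95% Poisson interval 5.92 to 7.18), second only to chromosome 17 among the 23 chromosomes compared, which left out Y. Chromosome 21 had 4.75 (4.15 to 5.42) and chromosome 22 had 4.55 (3.98 to 5.17). The density on chromosome 20 was thus 1.37 and 1.44 times that of the other two, and 1.41 times that of both together (1.23 to 1.61). Lengths run to the last gene or peak, and chromosomes 21 and 22 begin with long stretches without peaks. Measured from the first to the last 1 Mb window with a peak, the ratio to both together was 1.17 (1.02 to 1.34).

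Gene number gave another order. Chromosome 20 has 537 protein-coding genes in the RefSeq table, or 8.35 per Mb, and held 0.782 peaks per gene (0.709 to 0.861), which ranked 12 of 23. Chromosome 21, poorer in genes, had 0.929 (0.811 to 1.06), and chromosome 22, richer in them, had 0.512 (0.448 to 0.583). The peak caller set a local background, the input level, for each peak. It was at least 3 times the genome-wide value at 48 of the 222 peaks of chromosome 21. Chromosome 22 had 5 such peaks and chromosome 20 had 0. Values per gene without them were not computed, so whether chromosome 21 stands above chromosome 20 per gene is not settled. A summit lay in or within 5 kb of 145 genes of chromosome 20, or 27.0% (23.4 to 30.9), against 24.8% of all protein-coding genes. The share was 23.8% on chromosome 21 and 27.5% on chromosome 22. The density of chromosome 20 thus came with a share of genes near the background. Longer genes held a peak more often, as on the other chromosomes: 10.5% of those under 10 kb, 26.7% of those from 10 to 50 kb, 35.8% from 50 to 100 kb and 56.3% above 100 kb, against 11.7%, 19.6%, 32.0% and 52.9% elsewhere.

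Summits of chromosome 20 lay outside genes more often than those of the other chromosomes pooled. Summits inside a protein-coding gene were 163 of 420, or 38.8% (34.3 to 43.6), whereas elsewhere the share was 47.5%, although such genes cover 42.9% of chromosome 20 and 40.9% of the other chromosomes. The share of summits in genes divided by the share of length in genes was 0.904, the lowest of the 23 chromosomes, while it was 1.32 on chromosome 21 and 1.60 on chromosome 22. These ratios take the whole length, although the first summits of chromosomes 21 and 22 stood at 5525443 and 11212537. Ratios without those leading stretches were not computed. The share in genes itself was 36.0% on chromosome 21, where genes cover 27.3% of the length, and was 60.6% on chromosome 22. The value of chromosome 21 takes in 56 summits between 5 and 10 Mb, of which 1 was inside a protein-coding gene. Their median input level was 20.8 times the genome background. The share without them was not computed. On chromosome 20, 202 summits (48.1%, 43.4 to 52.9) were in no annotated gene of any kind, against 37.6% elsewhere, and only chromosome X had a higher share. A further 52 lay only in long non-coding RNA genes, 12.4%, close to the 12.6% of the other chromosomes. At protein-coding gene ends, no more than 1 kb to either side, lay 31 summits, or 7.38% (5.25 to 10.3), against 7.33% elsewhere, 3.60% on chromosome 21 and 10.4% on chromosome 22. Peaks inside protein-coding genes and peaks in no gene had the same median pileup, 17 tags.

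**Figure D1:**
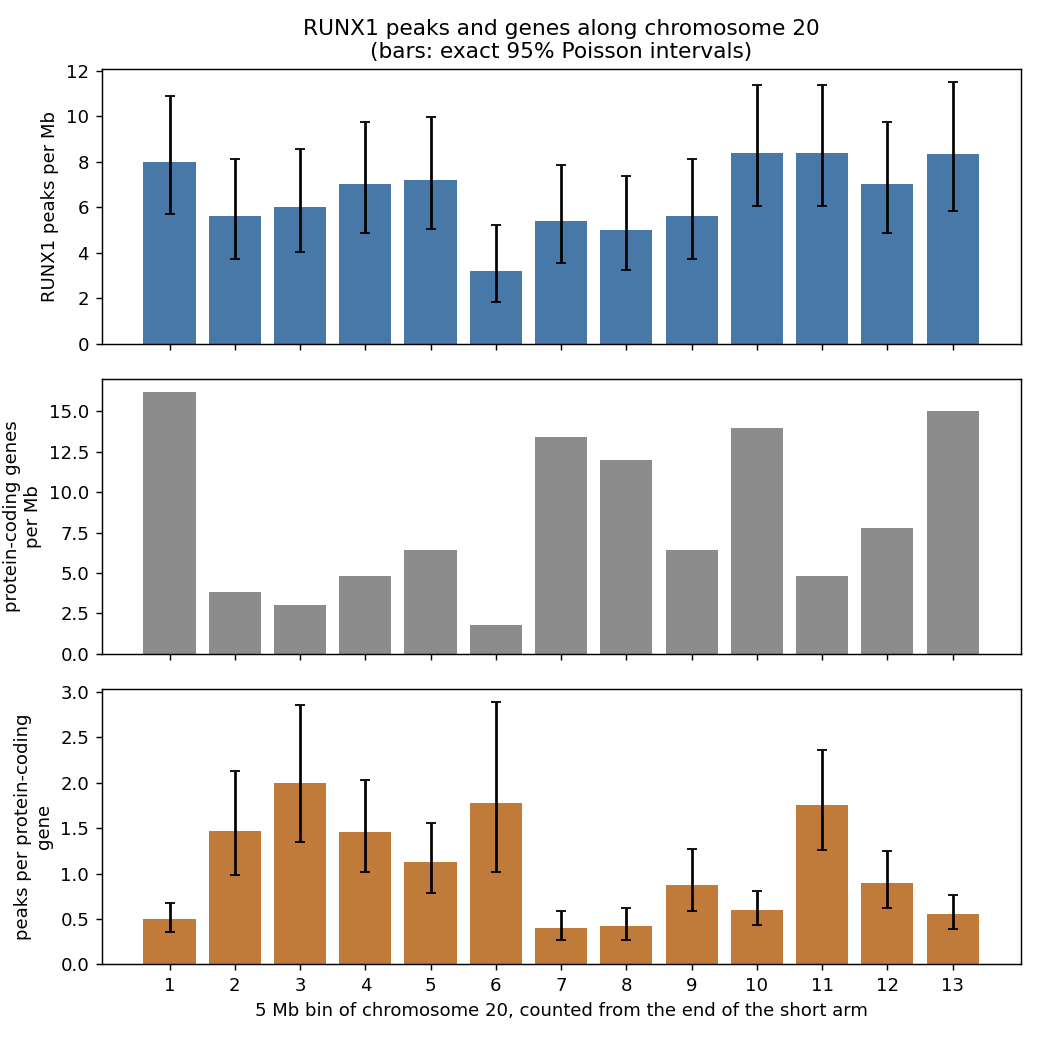
Peaks per Mb (top), protein-coding genes per Mb (middle) and peaks per protein-coding gene (bottom) in the 13 bins of 5 Mb along chromosome 20, with black bars for exact 95% Poisson intervals of the peak counts. Peaks per Mb ran from 3.2 in bin 6 to 8.4 in bins 10 and 11, whereas genes per bin ran from 9 to 81.

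Along the chromosome, no 5 Mb bin was empty. Counted from the end of the short arm, the 13 bins held 40, 28, 30, 35, 36, 16, 27, 25, 28, 42, 42, 35 and 36 peaks, the last bin being 4.33 Mb long. The lowest density was in bin 6, next to and over the centromere, with 3.2 peaks per Mb (1.83 to 5.20), and the highest were 8.4 in bins 10 and 11 (6.05 to 11.4), 8.32 in bin 13 and 8.0 in bin 1. In bin 6, 11 of the 16 peaks lay between 25040111 and 25534541, and a stretch of 2.36 Mb had none. Whether tags could be placed in that stretch was not tested. The interval of bin 6 lies below those of bins 1, 10, 11 and 13, while the intervals of the other 12 bins overlap, so no order among these bins can be read from the counts. The local input level, the background that the peak caller set for each peak, had a median of 1 to 1.25 times the genome-wide value in every bin, and median pileups were 15 to 19 tags.

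Per gene the order of the bins was another one, with bin 11 high and bins 7 and 8 low on both scales. Bin 3 had 2.0 peaks per protein-coding gene (1.35 to 2.86), bin 6 had 1.78 (1.02 to 2.89) and bin 11 had 1.75 (1.26 to 2.37). The lowest values were in gene-rich bins, 0.403 in bin 7 (0.266 to 0.586), 0.417 in bin 8 and 0.494 in bin 1. Bins 1 and 11 thus differed little in peaks per Mb but held 81 and 24 genes. Bin 12 had the lowest share of genes with a peak, 5 of 39 (12.8%), with 35 peaks in it. Over the 13 bins, densities of peaks and genes had a Pearson's r of 0.458, where chromosome 21 gave 0.717 over 10 bins and chromosome 22 gave 0.970 over 11. The value of chromosome 22 takes in its last bin of 0.808 Mb, which had 17.3 peaks per Mb. The value of chromosome 21 takes in bin 2, with a median input level 20.8 times the genome background. Both values also take in the empty bins at the start of these chromosomes. All 3 values are descriptions over neighbouring bins of the same libraries.

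**Figure D2:**
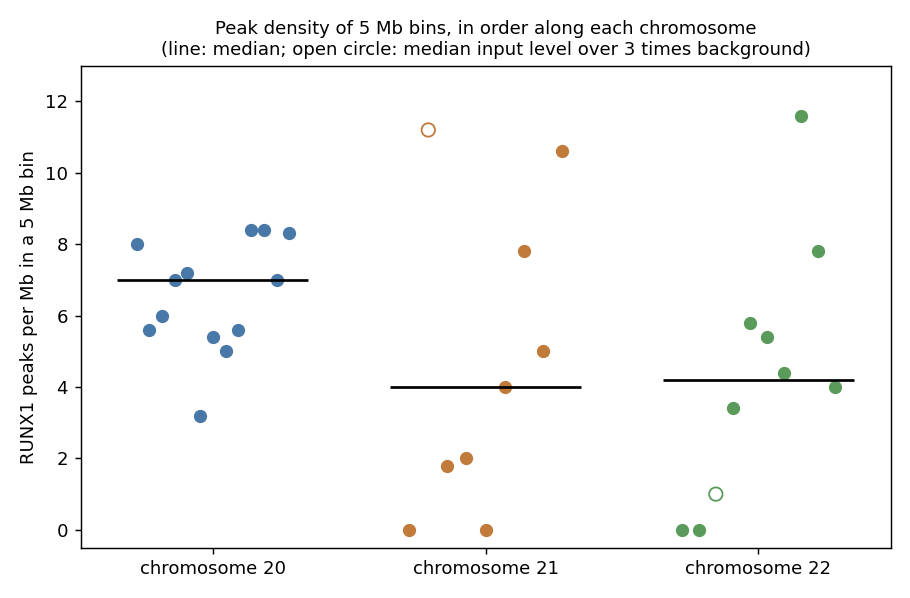
Peaks per Mb (vertical axis) of each 5 Mb bin of chromosomes 20, 21 and 22, placed in order along the chromosome, leaving out bins shorter than 2.5 Mb; lines are medians over the bins and open circles mark bins whose median input level was over 3 times the genome background. Chromosome 20 stayed between 3.2 and 8.4, whereas both others ran from 0 to above 11. Their bins at 0 include those before the first summit of each chromosome.

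The bins of chromosomes 21 and 22 were far less even in their counts. Each had 2 bins without a peak, bins 1 and 5 on chromosome 21 and bins 1 and 2 on chromosome 22. The first summits of these chromosomes stood at 5525443 and 11212537. Whether tags could be placed before those positions is not given in the sources used here, so the leading empty bins say nothing on binding. The highest densities in full bins were 11.2 on chromosome 21, in bin 2, and 11.6 on chromosome 22, in bin 8. The first of these rested on 56 peaks with a median input level 20.8 times the genome background. On chromosome 20 the largest input level of any peak was 2.92 times that background, and 46.9% of the peaks sat at it. Levels of 3 times or more were found at 48 peaks of chromosome 21 and 5 of chromosome 22. Without such peaks the density of chromosome 20 was 1.59 times that of both others together (1.38 to 1.83). With lengths also taken from the first to the last 1 Mb window with a peak, it was 1.32 times (1.15 to 1.52).

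A crowded interval lies where bins 10 and 11, the densest per Mb, meet, with all its peaks in bin 11. Between the end of SNAI1, a repressor of E-cadherin that drives epithelial to mesenchymal transition, and the start of PTPN1, a tyrosine phosphatase, lay 25 peaks in 0.521 Mb (49988886 to 50510383), or 47.9 per Mb (31.0 to 70.8). In the middle stands CEBPB, a transcription factor needed for mammary gland development. The interval was singled out after its counts were seen. It held 25 of the 42 peaks of bin 11, 59.5%, and the rest of that bin had 17 peaks, 3.79 per Mb. It was also the densest 500 kb of the chromosome, and its 25 peaks ranked 3 among the densest such windows of the 23 chromosomes, after 46 on chromosome 21 and 27 on chromosome 5. The window on chromosome 21, from 8205170 to 8446117, lies in its bin 2, where the median input level was 20.8 times the genome background.

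**Figure D3:**
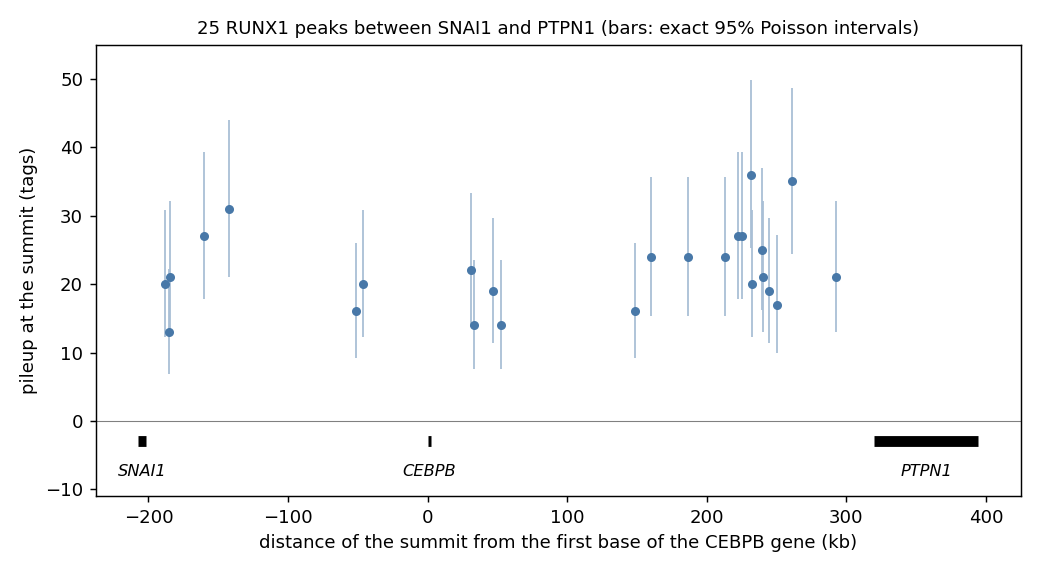
Pileup at the summit (tags, vertical axis) of the 25 peaks between SNAI1 and PTPN1 against their distance from the first base of the CEBPB gene (kb), with exact 95% Poisson intervals; black blocks are the 3 genes. The summits lie in groups on both sides of CEBPB at 13 to 36 tags, with 10 of them 213 to 261 kb beyond it.

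None of these 25 summits lay within 10 kb of SNAI1, CEBPB or PTPN1. The nearest stood 13.2 kb from SNAI1, 28.9 kb from CEBPB and 26.9 kb from PTPN1, and 4 were within 50 kb of CEBPB. Pileups were 13 to 36 tags with a median of 21, fold enrichments 4.37 to 9.99 and input levels 1 to 1.67 times the genome background. The fold enrichment is the pileup over the local input level, each after 1 is added. A run of 10 peaks lay between 50403895 and 50451412, each within 25 kb of the next, at 17 to 36 tags and in no gene of the table. The tallest, at 50422498 to 50422808, reached 36 tags (25.2 to 49.8) and 9.85-fold, and the next, at 50450922 to 50451624, reached 35 tags. On the side of SNAI1, 5 peaks lay around the long non-coding RNA gene SCREEM1, up to 31 tags. Only 2 of the 25 summits were inside protein-coding genes, both in PEDS1, an enzyme of plasmalogen synthesis, and its read-through gene PEDS1-UBE2V1, at 16 and 20 tags. Leaving out the interval and its length, the chromosome had 6.19 peaks per Mb.

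Close runs of peaks were present elsewhere on the chromosome. Of the 419 distances between neighbouring summits, 86 (20.5%) were under 10 kb and 10 were over 1 Mb, and the median was 64.5 kb. In all, 8 runs had at least 4 peaks each within 25 kb of the next, and together they took 45 peaks, 10.7%. Of the 8, 3 belong to the interval around CEBPB. Around ID1, an inhibitor of differentiation that blocks basic helix-loop-helix factors, 5 peaks stood within 8.52 kb at 11 to 20 tags, none of them in the gene of 1.22 kb, and 4 of them were within 5 kb of it. The hairpin of the microRNA gene MIR3193 lies in the same run, 294 bp from a summit. Another run held 6 peaks over 55.8 kb, from 44660684 to 44716445. It reached CCN5, a matricellular protein, which had 2 peaks in it or within 5 kb. The remaining runs were 4 peaks from ZNF335 to MMP9, a matrix metalloproteinase, and 5 at PMEPA1, a membrane protein that dampens TGF-beta signalling. The last had 6 peaks at LAMA5, the laminin alpha-5 chain of epithelial basement membranes.

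The longest distance between neighbouring peaks was 2.36 Mb, from 25861794 to 28222853, in bin 6 near the centromere. Below it 183 peaks made 7.08 per Mb (6.09 to 8.18), and above it 237 made 6.56 (5.75 to 7.46), and these intervals overlap. Per gene they were 1.02 (0.875 to 1.18) and 0.664 (0.582 to 0.754), with 6.96 and 9.89 genes per Mb. Fold enrichments of at least 10 were found at 4 peaks below and 11 above.

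Peaks of chromosome 20 were many and of ordinary height. The median pileup was 17 tags (quartiles 14 and 22, range 10 to 56), the median fold enrichment 5.00 and the median width 152.5 bp. On the other chromosomes the medians were 18 tags, 5.06 and 153 bp. At least 10-fold enrichment was found at 15 peaks, 3.57% (2.18 to 5.81), against 3.83% elsewhere, 9.91% on chromosome 21 and 3.46% on chromosome 22. Ranked by q, which is the caller's adjusted p and is given as −log10, 1 peak of chromosome 20 was among the 100 strongest of the whole list and 29 were among the 1000 strongest. Chromosome 21 had 12 and 30, and chromosome 22 had 0 and 16.

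**Figure D4:**
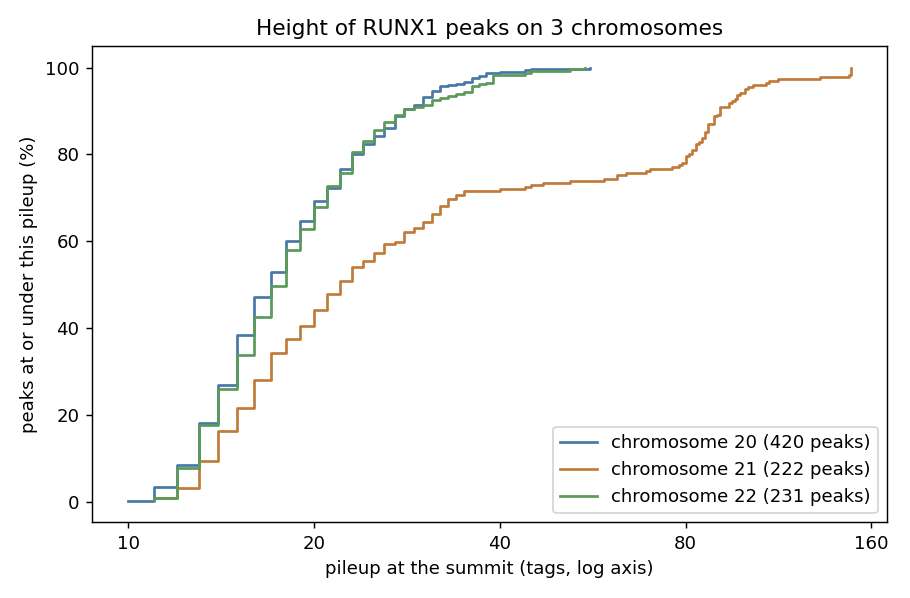
Share of peaks (%) at or under each pileup (tags, log axis) for chromosomes 20, 21 and 22. Chromosomes 20 and 22 run together, with medians of 17 and 18 tags, and chromosome 21 has a separate group of tall peaks up to 148 tags.

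The tall peaks of chromosome 21 came from particular places. Its 3 strongest were all in RUNX1 itself, at 148, 147 and 132 tags, and 17 of its 222 peaks were in or within 5 kb of that gene. No pileup of this list can exceed 148 tags. The cells also carried an introduced RUNX1 gene, and whether tags from it add to the peaks in RUNX1 was not tested. Without those 17 peaks and the 48 of high input, chromosome 21 had 157 peaks, or 3.36 per Mb. Their median pileup was 18 tags, and 12 of them (7.64%) were of 10-fold or more. The 3 strongest of chromosome 22 were more like those of chromosome 20. They lay 599 bp from SHISA8, inside PARVB, a focal adhesion protein, and 2.89 kb from APOBEC3G, a cytidine deaminase, at 39, 39 and 38 tags.

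The strongest site of chromosome 20 was in GMEB2, which binds glucocorticoid modulatory elements. It spanned 63601727 to 63602130 in bin 13 and reached 56 tags (42.3 to 72.7) and 17.8-fold, with a −log10 q of 52.0, and ranked 38 of the whole list. The second, 64278018 to 64278305, stood 1.94 kb past the nearer end of PCMTD2, a protein of the methyltransferase-like family, at 44 tags (32.0 to 59.1) and 14.1-fold. The third, 60372844 to 60373300, had 45 tags (32.8 to 60.2), and its nearest protein-coding gene, the cadherin CDH26, was 337 kb away. Their intervals overlap, so GMEB2 cannot be told apart from the next by height alone.

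The next sites were also mixed in position. The fourth, at 49768435, lay in the non-coding LOC105372652, 44.0 kb from the sodium-proton exchanger gene SLC9A8, at 44 tags (32.0 to 59.1). The fifth, at 57902565, stood 191 kb from PMEPA1 with 40 tags (28.6 to 54.5). The sixth lay 82 bp before the first base of BPI in chromosome coordinates, at 38 tags (26.9 to 52.2) and 12.2-fold. BPI is a bactericidal protein of neutrophils.

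SRC, the tyrosine kinase proto-oncogene, held the seventh at 37394867 to 37395326, with 37 tags (26.1 to 51.0) and 11.7-fold. The eighth, at 23126520, was in the non-coding LINC00656, 40.4 kb from CD93, a surface receptor of endothelium and myeloid cells, and the ninth, at 49751084, was 37.4 kb from the galactosyltransferase gene B4GALT5, both at 36 tags. The tenth was in RALGAPA2, which restrains Ral GTPases, at 35 tags (24.4 to 48.7). Of the 15 peaks of 10-fold or more, 5 were inside protein-coding genes, 2 were outside but within 5 kb and 7 were over 30 kb away. They were spread over 8 bins, and their input levels were 1 to 1.25 times the genome background.

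At gene ends the strongest peak was that at BPI. The second was in ZNF341, a zinc finger activator of STAT3, 448 bp from an end of the gene, at 26 tags (17.0 to 38.1). The third stood 311 bp from SIRPB1, a signalling receptor of myeloid cells, at 25 tags (16.2 to 36.9). The other 7 of the first 10 were at TMX4, CCN5, ACSS1, GZF1, BPIFB4, PEDS1 and TGM2, with 19 to 22 tags. At CCN5 the summit was 1 bp outside the gene. TGM2 makes a tissue transglutaminase and ACSS1 a mitochondrial acetyl-CoA synthetase.

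Some genes of chromosome 20 held several peaks. MACROD2, a very long gene for an ADP-ribose hydrolase, had 7 in 2058 kb, or 0.340 per 100 kb of gene body, at 13 to 30 tags. LAMA5 also had 7, with 4 of them in its 58.2 kb or 6.87 per 100 kb, at 15 to 25 tags. RIN2, an exchange factor for Rab5, had 6 at 12 to 38 tags. PMEPA1 had 5 at 13 to 23 tags. Per length LAMA5 and PMEPA1 (6.34 per 100 kb) were thus much denser than MACROD2. Of the 145 genes with a peak, 92 had a single one.

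The dense bins had different leading genes. In bin 10 the strongest site was that in LOC105372652. In bin 13 LAMA5 had the most peaks and GMEB2 the strongest. Among the bins dense per gene, bin 3 was led by MACROD2, while its strongest peak, 32 tags (21.9 to 45.2) at 12411880, stood 485 kb from BTBD3, a protein of dendrite orientation. In bin 6 the centrosomal gene NINL had 4 peaks, and the strongest by q was in ACSS1 with 26 tags (17.0 to 38.1). In bin 11 no protein-coding gene had over 2 peaks.

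**Figure D5:**
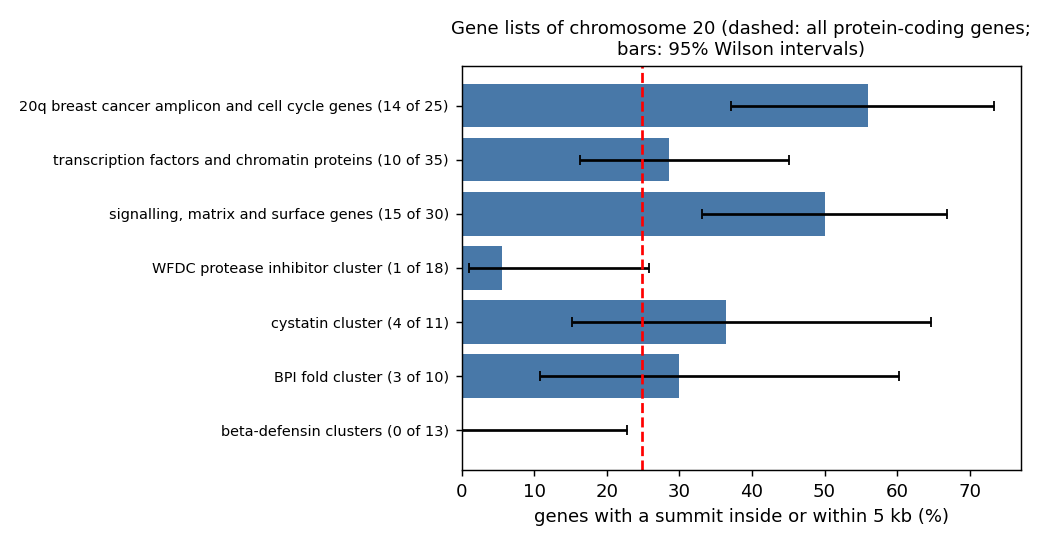
Share of genes with a summit inside or within 5 kb (%, horizontal axis) for 7 gene lists of chromosome 20, with 95% Wilson intervals; the dashed line is the 24.8% of all protein-coding genes. The lists of amplicon and cell cycle genes (56%) and of signalling, matrix and surface genes (50%) lie above it, and 0 of 13 beta-defensins have a summit. The lists were chosen with earlier results of these data known.

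The gene lists below were chosen with earlier results of these data known, so their shares describe the listed genes and test nothing. Of 25 listed genes of the breast cancer amplicon on the long arm and of the cell cycle, 14 held a peak. That was 56% (37.1 to 73.3), beside 27.0% of all genes of the chromosome. The 25 had a median length of 49.4 kb, and genes of that length held a peak in 26.7% to 35.8% of cases on chromosome 20. SRC had the highest fold enrichment of the list, 11.7 at 37 tags. CDC25B, a phosphatase that opens mitosis, had 2 peaks, up to 38 tags (26.9 to 52.2) and 6.97-fold, with an input level of 2.09 times the genome background. ZMYND8, a chromatin reader, had 2, up to 20 tags, and AURKA, a mitotic kinase, had 2 outside the gene, up to 18. PTPN1 had 2 of 12 tags each. MYBL2, PCNA, BCL2L1, BCAS1, ADRM1, NCOA3, BCAS4, EEF1A2 and STK4 had 1 each, at 11 to 19 tags. ZNF217, E2F1, TPX2, UBE2C, CYP24A1 and 6 others had none.

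Signalling, matrix and surface genes were similar, with 15 of 30, or 50% (33.2 to 66.8), and a median length of 44.5 kb. Besides LAMA5 and RIN2, PLCB1 and PLCG1, phospholipases that relay receptor signals, had 4 and 3 peaks, up to 33 and 20 tags. JAG1, a ligand of Notch receptors, had 2, the taller of 23 tags and 7.50-fold, and the second of 17. TGM2 had 2 at 21 and 22 tags, and SULF2, which trims sulfate from heparan sulfate, had 1 of 27 tags outside the gene. NTSR1, PTPRA, CCN5, PLCB4, TGM3 and MMP9 had 2 each and SDC4 and PROCR 1 each. No summit lay at BMP2, BMP7 or PTPRT, the last of 1158 kb.

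Among transcription factors and chromatin proteins 10 of 35 had a peak, 28.6% (16.3 to 45.1), close to the background. EYA2, a transcriptional coactivator and phosphatase, had 4 at 16 to 28 tags. SS18L1, a subunit of neuronal BAF complexes, had 1 of 31 tags (21.1 to 44.0) and 9.99-fold, and DNMT3B, a DNA methyltransferase, 1 of 27 tags. Besides ID1, GZF1 had 2, and TSHZ2, SOX12, CHD6, OVOL2 and HNF4A 1 each, at 13 to 15 tags. CEBPB, SNAI1, TFAP2C, FOXA2 and NFATC2 had none within 5 kb.

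The families of secreted defence proteins differed in their counts, on few genes. Of 11 cystatins, which inhibit cysteine proteases, 4 had a peak (36.4%, 15.2 to 64.6), CST3 at 24 tags, CST4 at 18, CST8 at 16 and CST5 at 15. Of 10 BPI fold genes 3 did, BPI with 3 peaks and BPIFB4 and BPIFB1 with 1 each, at 19 and 15 tags. In the WFDC cluster it was 1 of 18 (5.56%, 0.988 to 25.8), SLPI, an antiprotease of mucosal secretions, at 16 tags. None of 13 beta-defensins had a peak, with an upper limit of 22.8%, though a summit of 37 tags stood 10.5 kb from DEFB128. The intervals of the 4 families overlap. The cystatin, beta-defensin and WFDC genes are short, with median lengths of 3.75, 5.32 and 6.03 kb, and 10.5% of all chromosome 20 genes under 10 kb held a peak. The BPI fold genes have a median of 19.8 kb. How tags from near-identical copies in such families were placed is not given in the sources used here, so values for single cystatin or defensin genes are uncertain.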

How the data were processed

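Peaks were taken from the deposited list, which the authors made with MACS (version 2.1.2 per the file headers) from the RUNX1 immunoprecipitate against input at a q limit of 0.05. The submitters' processing notes name Bowtie2 and hg38, with no Bowtie2 version. Tags of 54 bp were extended to 74 bp with 1 tag kept per position and strand, so pileups cannot exceed 148. The deposited pileup is a signal in tags, the deposited fold enrichment is a ratio, and the deposited q-value is given as −log10. The ChIP library had 89501295 tags and the input library 94686274 before that filter. No other per-sample column was present.

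The input level was recovered from the pileup plus 1, divided by the fold enrichment, less 1, and expressed against the genome-wide background of 2.20 tags. Summits were counted in 5 Mb bins and against gene intervals of the GRCh38.p14 RefSeq table. Genes were put in the bin of their midpoint. All 142 listed symbols matched. The gene table has no strand, so either gene end was used. Promoter windows from RefSeq existed for 378 of 537 protein-coding genes. The planned motif search around all summits needs a genome and was not run. The promoter windows took its place.

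With 1 library of each kind no test between samples was made. Intervals are exact Poisson for counts and Wilson for shares, and that of a density ratio is exact binomial, each at 95%. Samples were assigned by the antibody in their labels. The chromosome, the gene lists and the rules for naming genes were chosen with earlier results of these data known. Genes named are those at the 10 strongest peaks by q and the 10 strongest at gene ends, the 5 with most peaks, the leading genes of the dense bins, list members and those at the 3 strongest peaks of chromosomes 21 and 22. Others, such as those of the close runs and of the printed promoters, were chosen after their values were seen. Some genes that these rules name are not reported here. Alternatives were a fold enrichment of at least 5, merging within 1 kb, a q limit of 0.01, and other bins, lengths and flanks. Counting functions were tested on simulated data. Python 3.11.15, pandas 2.3.3, numpy 2.4.6, SciPy 1.17.1, statsmodels 0.14.6 and matplotlib 3.10.9 were used.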

Additional observations from a re-analysis of the deposited data

How the results depend on the processing

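Of 38 alternatives to 8 results, 28 stayed within the interval or within 1.5 times the count of the reported value. A fold enrichment of at least 5 left 3.20 peaks per Mb, 5.2 in the densest bin, 0.384 per protein-coding gene and 83 genes with a peak, and all 8 promoter windows with a summit then held a RUNX site (100%). That share was 92.3% after merging of peaks within 1 kb. It was 52.9% (31.0 to 73.8) when the site had to lie within 50 bp of a summit. The density ratio to chromosomes 21 and 22 was 1.17 with lengths from the first to the last 1 Mb window with a peak, and 1.32 when peaks of high input were also left out, an alternative added after seeing the data. With all annotated genes as the denominator there were 0.285 peaks per gene. With 50 kb on either side 332 genes had a peak, and 23.3% of summits were within 5 kb of a gene end. Which bin was densest changed with the setting: bin 13 at a q limit of 0.01, bin 11 at a fold enrichment of at least 5, and 10.8 peaks per Mb from 47.5 Mb on when bins were shifted by 2.5 Mb. No paired analysis was possible because each kind of library was made a single time. Weak peaks are limited by depth: the 95% interval of a peak of 10 to 15 tags includes the median of 17.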
